A study of Mus musculus with 6 samples.

Results

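In megakaryocyte–erythroid progenitors (MEPs) of mice that carry an inducible *Nanog* transgene, 136 of the 12101 genes measured fell to a low level when the transgene was switched on with doxycycline (dox). A gene was taken when its value lay under 2 on the log2 CPM scale (CPM being reads per 1000000 reads of a normalized library) in all 3 dox-treated libraries, when each of these 3 values lay under the lowest of the 3 untreated values, and when the untreated mean exceeded the dox-treated mean by at least 1.5 on that scale. Of all genes, 139 met these limits (1.15%), and *Fcnb*, *Gzmb* and *Cebpe* were then left out by name. The genes were thus chosen by the same dox-treated and untreated values, and their differences are given below as a description with no test. Non-overlap alone was common, since in 18.2% of all genes every dox-treated value lay under every untreated value.

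MEPs are bone marrow progenitors that give rise to red cells and platelets. They were sorted from adult mice of the CD-1 strain carrying both R26-M2rtTA, the dox-dependent activator expressed from the Rosa26 locus, and Col1a1-tetO-Nanog, the *Nanog* transgene under its control. One group received dox in the drinking water for 5 days and the other received none, and both groups carried both transgenes, with 3 libraries each. The gate was lineage-negative, c-Kit-positive and Sca-1-negative, followed by CD34 and CD16/32. Because the activator is expressed throughout the body and no dox-treated mice without the *Nanog* transgene enter the comparison, effects of dox, of *Nanog* inside MEPs and of *Nanog* in other tissues cannot be told apart. The sources used here do not say whether a replicate is a single mouse or a pool, and the spread between replicates may be partly technical.

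*Nanog* had between 15959 and 19609 reads in the dox-treated libraries and between 1 and 13 in the untreated ones. Each library held between 11264803 and 16153600 reads on listed genes, so that 1 read was worth 0.0642 to 0.091 CPM. The genes described here were thus counted from few reads. Their median was 177 reads over the 6 libraries, with a range from 51 to 1520. Apart from the member *Erfe*, the 18 erythroid genes listed as markers of the sorted cells summed to 9430 to 9848 CPM in the untreated libraries. They summed to 7046 and 6751 CPM in dox-treated replicates 1 and 2, under every untreated library, and to 11278 CPM in dox-treated replicate 3, above every one.

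Granulocytes, monocytes and MEP descendants branch from common marrow progenitors. Neutrophil precursors fill primary granules with proteases such as elastase first, and later make the proteins of secondary and tertiary granules, among them gelatinase and collagenase. C/EBP factors drive much of this programme and bind sites of the form TTGCNNAA, whereas *Cyp1a1*, a cytochrome P450 enzyme, is the classical target of the aryl hydrocarbon receptor, which binds the core GCGTG.

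RefSeq promoters (GRCm38.p6, 250 bases before to 50 bases after the gene's start) matched 89 of the 136 genes. The promoters of 3 members are shown because they hold a motif named above, with each match to either motif printed in capitals, and because their genes belong to the groups described below. That of *Cyp1a1* lies at chr9:57697363-57697662 on the plus strand, that of the inflammasome regulator *Nlrp12* at chr7:3249691-3249990 on the minus strand and that of the neutrophil collagenase *Mmp8* at chr9:7558179-7558478 on the plus strand, and each is written 5′ to 3′ on the gene's strand.
Cyp1a1: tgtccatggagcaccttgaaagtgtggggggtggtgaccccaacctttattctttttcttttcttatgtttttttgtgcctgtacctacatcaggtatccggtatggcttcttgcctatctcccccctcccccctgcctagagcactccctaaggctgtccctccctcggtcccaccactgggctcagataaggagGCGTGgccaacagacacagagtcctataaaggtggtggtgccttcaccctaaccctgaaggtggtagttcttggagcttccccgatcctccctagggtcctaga
Nlrp12: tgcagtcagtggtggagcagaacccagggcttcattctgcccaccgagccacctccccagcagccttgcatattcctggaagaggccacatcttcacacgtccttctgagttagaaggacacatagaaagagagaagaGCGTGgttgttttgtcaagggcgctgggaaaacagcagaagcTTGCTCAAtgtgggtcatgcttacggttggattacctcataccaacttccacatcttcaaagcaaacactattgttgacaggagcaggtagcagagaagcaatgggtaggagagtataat
Mmp8: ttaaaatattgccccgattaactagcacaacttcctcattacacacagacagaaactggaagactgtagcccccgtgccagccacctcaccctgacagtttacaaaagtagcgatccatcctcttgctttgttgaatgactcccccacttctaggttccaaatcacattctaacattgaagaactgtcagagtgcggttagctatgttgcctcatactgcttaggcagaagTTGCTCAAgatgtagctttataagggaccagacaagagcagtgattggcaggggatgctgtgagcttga

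Neither motif was more frequent among the members than among promoters at large. On either strand, TTGCNNAA was in 8 of the 89 promoters (8.99%) against 12.2% of all 27025 promoters, and GCGTG was in 34.8% against 35.2%. Of 3 further motifs, GAGGAA (bound by PU.1 and other ETS factors) was in 31.5% against 31.3%, AGATAA (bound by GATA factors) in 13.5% against 12.7% and CATTAN (a core of homeodomain sites) in 28.1% against 29.8%. Of the 22 matched promoters of granule and myeloid genes, 4 held TTGCNNAA (18.2%), 4 GCGTG (18.2%), 9 GAGGAA (40.9%), 3 AGATAA (13.6%) and 9 CATTAN (40.9%). Such a match is a description of letters and not a binding site.

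All 136 genes had modest levels. Untreated means lay between 1.39 and 35.4 CPM with a median of 4.01, and dox-treated means between 0.0354 and 3.17 CPM with a median of 0.873. On the log2 scale the difference, untreated minus dox-treated, was 1.52 at the least, 2.35 at the median and 5.51 at the most, and it was at least 3 in 27 genes and at least 4 in 15. These are differences of mean log2 values with 0.5 reads added to every count. They understate the change of genes with 0 reads in every dox-treated library. Where only some dox-treated libraries had 0 reads, they can exceed the change in mean CPM. *Gm10254*, with the largest difference, had mean CPM of 6.58 in untreated and 0.698 in dox-treated MEPs, a ratio of 9.41. In 15 genes at least 1 dox-treated library had 0 reads, and in 5 genes no dox-treated library had more than 3 reads. Protein-coding genes made up 126 of the 136 (92.6%, against 93.4% of all genes).

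**Figure D1:**
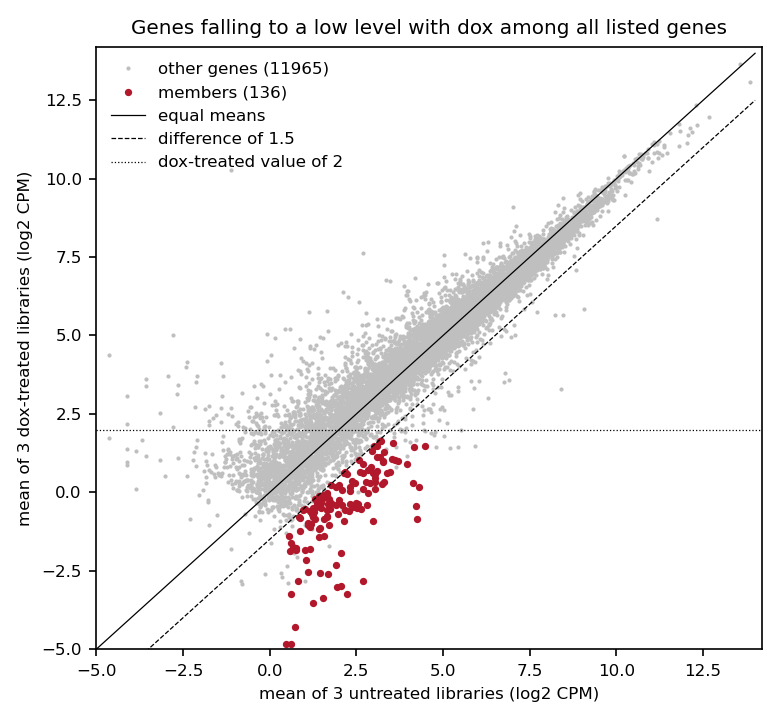
Mean log2 CPM of each of 12101 genes in untreated (x axis) and dox-treated (y axis) MEPs, with the 136 members in red, equal means as a solid line, the difference of 1.5 as a dashed line and the value of 2 as a dotted line. The members lie under both limits, with differences of 1.52 to 5.51.

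Described by function, the set held 12 granule and antimicrobial proteins, 15 myeloid receptors, adaptors and enzymes, 7 lymphoid genes, 22 metabolic enzymes, 22 transcription factors and signalling regulators, 15 genes of adhesion, junctions or matrix, 11 of the cytoskeleton and its motors, 8 channels and transporters, 3 secreted factors and 21 other, predicted or non-coding genes. The median difference of a group ranged from 2.09 for the other, predicted or non-coding genes to 2.71 for channels and transporters. Summed over all members, levels were 936.3, 684.8 and 734.4 CPM in untreated replicates 1, 2 and 3 and 146.5, 152.5 and 131.7 CPM in dox-treated replicates 1, 2 and 3.

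**Figure D2:**
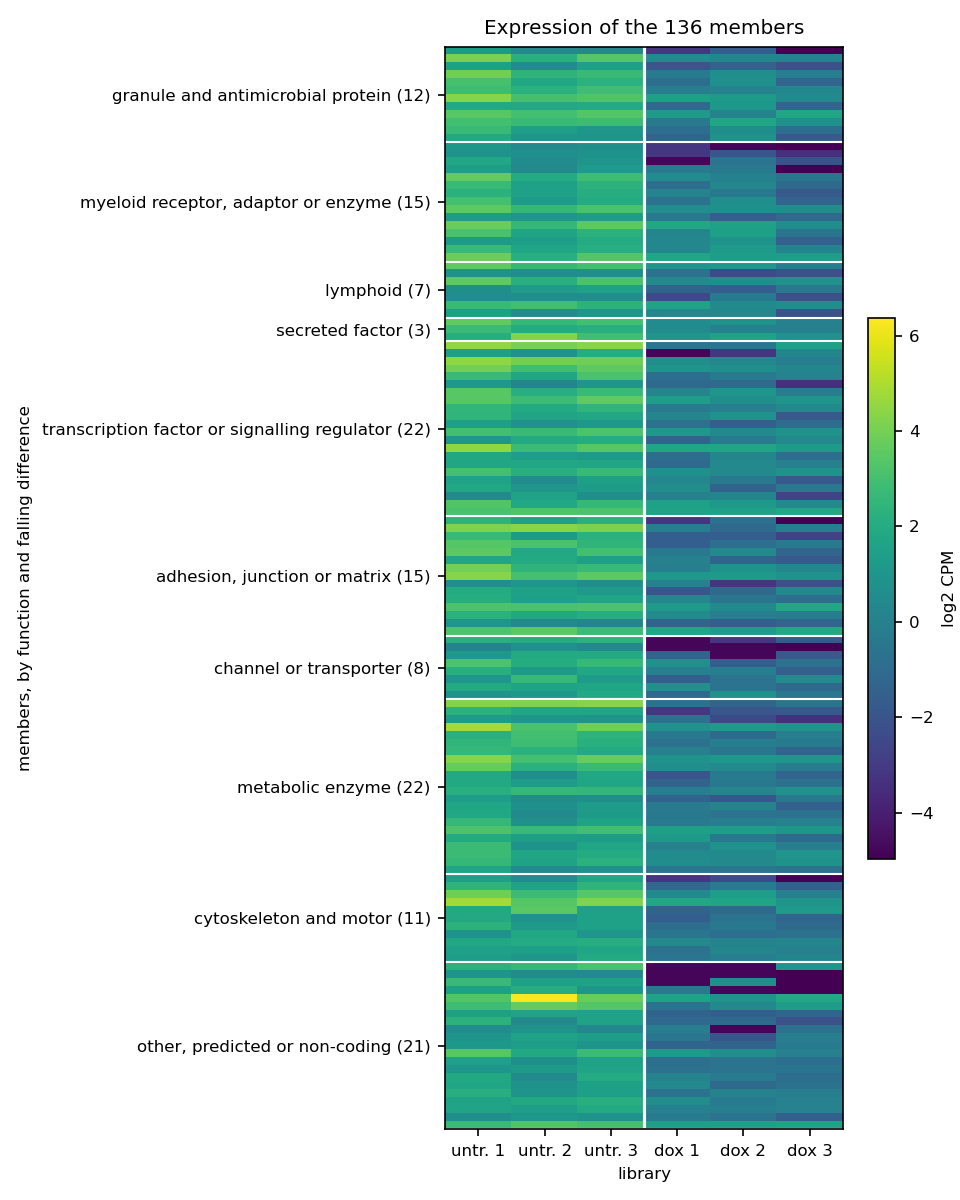
Log2 CPM of the 136 members (rows, ordered by function group) in the 6 libraries (columns). Untreated replicate 1 was the highest library in 86 of the rows, and all dox-treated values were under 2.

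The granule group comprised genes of late neutrophil granules and of eosinophils. *Trem3*, a receptor of the TREM family made by neutrophils and macrophages, had 220, 64 and 114 reads in untreated replicates 1, 2 and 3 and 19, 15 and 16 in dox-treated replicates 1, 2 and 3 (10.8 ± 6.20 against 1.22 ± 0.196 CPM, SD, n = 3), the order in which reads are given throughout. *Chil1*, a chitinase-like protein of neutrophil specific granules, had 29, 17 and 13 against 1, 4 and 0 reads, a difference of 3.86 that was 2.84 with 2 reads added before the log. *Abca13*, a lipid transporter, had 194, 72 and 73 against 11, 21 and 14 reads. In all 3 genes untreated replicate 1 stood highest.

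Both matrix metalloproteinases of the group were set apart by dox-treated replicate 2. *Mmp9*, gelatinase B, had 49, 49 and 42 reads against 6, 28 and 6, and *Mmp8* had 48, 25 and 20 against 5, 24 and 4. For *Mmp8* the groups barely separated, by 0.03 on the log2 scale. *Itgb2l*, a neutrophil integrin subunit, had 36, 19 and 30 reads against 3, 5 and 3, and *Wfdc21*, a small whey acidic protein family member, had 108, 47 and 53 against 7, 22 and 6. *Slpi*, an inhibitor of neutrophil elastase, stood at 12.5 ± 6.38 against 2.16 ± 0.709 CPM, and *Cd177*, a neutrophil surface glycoprotein, at 7.09 ± 0.712 against 1.93 ± 1.33 CPM. *Lrg1*, a leucine-rich glycoprotein of neutrophil granules, was at 3.72 ± 2.36 against 0.899 ± 0.607 CPM.

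A pair of members encode eosinophil granule proteins. *Epx*, eosinophil peroxidase, had 93, 65 and 82 reads against 12, 14 and 19 (6.54 ± 1.48 against 1.08 ± 0.166 CPM). *Prg2*, eosinophil major basic protein, had 139, 107 and 110 against 29, 14 and 50 reads. Dox-treated replicate 3 was the highest dox-treated library for both.

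Among myeloid receptors, adaptors and enzymes, the clearest drop was in *Serpinb10*, a serpin of haematopoietic cells, with 26, 18 and 17 reads against 1, 0 and 0. Its exons share bases with *Serpinb2* on the same strand, so the split of reads between them is uncertain. *Nlrp12*, whose promoter is printed above, had 23, 22 and 19 reads against 1, 3 and 1, and was even in the untreated libraries. *Gapt*, a membrane adaptor that binds GRB2, had 45, 19 and 21 against 0, 8 and 3 reads. *Pram1*, an adaptor of neutrophil signalling, had 32, 18 and 26 against 11, 10 and 0 reads, and it shares exon bases with the predicted gene *Gm20507*.

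Lectin and chemokine receptors were in the same group. *Clec5a*, a receptor of monocytes and neutrophils, had 163, 53 and 79 reads against 19, 13 and 10, and *Clec4a2*, an inhibitory lectin of dendritic cells and monocytes, had 146, 82 and 96 against 20, 22 and 24. *Cx3cr1*, the fractalkine receptor, was lower and even, with 31, 26 and 27 against 10, 4 and 7 reads. *Ccr2*, the receptor that directs monocytes out of the marrow, had 182, 59 and 112 against 44, 35 and 39 reads. The other members here were *Mefv* (pyrin), *Mgl2* (a macrophage lectin), *Olr1* (a scavenger receptor), *Ltb4r1* (the leukotriene B4 receptor), *Ctsh* (cathepsin H), *Adam8* and *Plbd1*, with differences between 1.63 and 2.75.

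*Cebpd*, a C/EBP factor of myeloid cells that stands in the group of transcription factors, had 200, 101 and 129 reads against 25, 22 and 18 (11.6 ± 4.05 against 1.58 ± 0.355 CPM). *Trib1*, a pseudokinase that directs C/EBPα to degradation, had 71, 42 and 39 against 15, 24 and 4 reads. In these bulk libraries, fewer myeloid cells in the gate and less myeloid RNA per cell cannot be told apart.

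**Figure D3:**
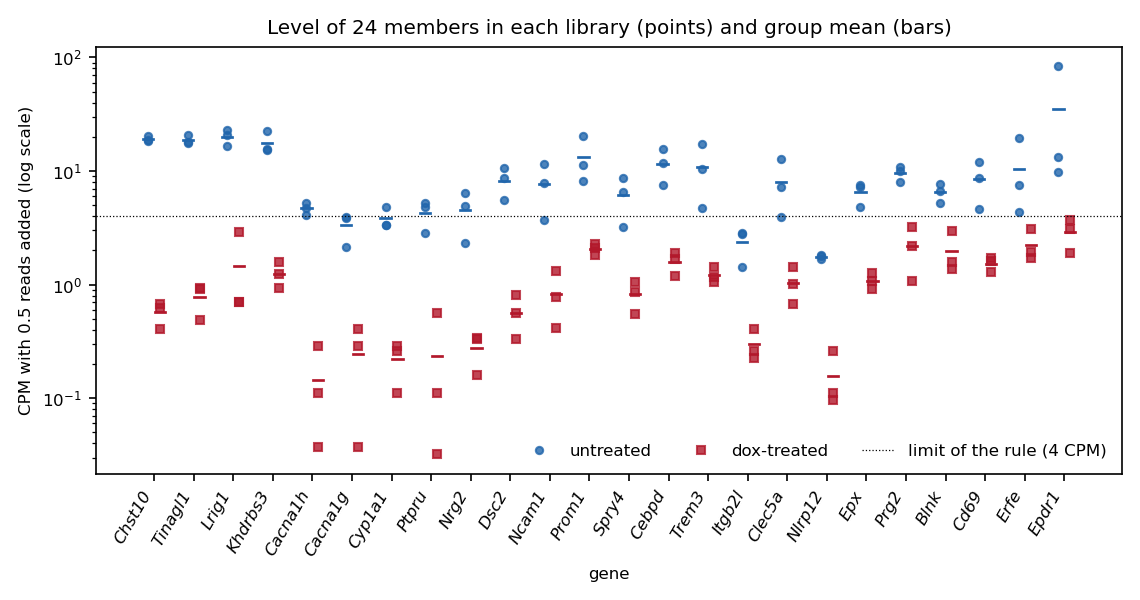
CPM (0.5 reads added, log axis) of 24 members (x axis) in each library, with a point per library, a bar at each group's mean and the limit of 4 CPM as a dotted line. The dox-treated points lie under all untreated points for each gene, by definition of the set. Untreated replicate 1, which the points do not mark, was the highest library for *Trem3* and *Clec5a*.

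Other myeloid genes were examined beside these groups. Across all 12088 genes tested with limma and Benjamini–Hochberg adjustment at 0.05, 384 were lower in dox-treated MEPs (3.18%) and 555 were higher (4.59%). With a library left out, the lower genes numbered 80, 91 and 1687 without dox-treated replicates 1, 2 and 3 and 79, 126 and 36 without untreated replicates 1, 2 and 3, and the higher genes between 92 and 1801. Members were chosen for being lower, so the counts that follow are of list genes that are no members. All 6 primary granule genes listed were lower. *Elane*, neutrophil elastase, fell by 3.22 (SE 0.339, limma adjusted p = 0.0108) on the log2 scale and *Mpo*, myeloperoxidase, by 2.45 (SE 0.338, limma adjusted p = 0.0177). Apart from 11 members, 15 secondary and tertiary granule genes were tested and 7 were lower, with a median difference, dox-treated minus untreated, of -1.97 against -0.03 over all genes. *Camp*, the cathelicidin precursor, fell by 3.78 (limma adjusted p = 0.0213), and *Lcn2* and *Ltf*, lipocalin 2 and lactoferrin, did not pass the test. The monocyte, macrophage and dendritic cell list had 6 of 16 lower, with a median of -1.39, and 11 more of its genes were members. *Irf8*, a transcription factor of monocyte and dendritic cell development, fell by 2.41 (limma adjusted p = 0.0185), whereas *Cd68* differed by 0.04 and *Lyz2* by -0.16, neither past the test.

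Markers of other cells in or near the gate did not share one direction. Of 10 marrow macrophage genes tested, *Vcam1* was lower and *Hmox1* and *C1qc* were higher. Of 3 eosinophil and basophil genes 1 was lower. Another of them, *Ltc4s*, had a higher mean with dox, by 1.89, at an unadjusted p under 0.05 (limma adjusted p = 0.0751). Of 4 stroma and endothelium genes 1 was lower and 2 were higher, with *Cd248* and *Tmem119* of that list among the members. Mast cell genes were higher in 3 of 5 cases. Megakaryocyte genes had 1 of 8 lower and 2 higher, and of 9 stem cell genes 0 passed in limma, though 6 had higher means with dox at an unadjusted p under 0.05 and the median difference was 1.35. *Prom1* of that list was a member. The erythroid list had 2 of 18 lower, *Epb42* and *Ermap*. Over all cell type lists 28 of 111 genes were lower and 9 higher. The lower genes numbered 3, 10, 6 and 18 without dox-treated replicate 1, dox-treated replicate 2, untreated replicate 1 and untreated replicate 2, 40 without dox-treated replicate 3 and 0 without untreated replicate 3 (39 at an unadjusted p under 0.05). The higher genes numbered 4, 3 and 18 without dox-treated replicates 1, 2 and 3 and 3, 3 and 4 without untreated replicates 1, 2 and 3, and the 2 higher stroma genes, *Col1a2* and *Pdgfrb*, passed only without dox-treated replicate 3. Of the genes given here by name, *Hmox1* and *C1qc* passed in all 6 such fits, *Elane* passed in 5 and lost its call without untreated replicate 3 (limma adjusted p = 0.051), and *Mpo*, *Irf8*, *Vcam1* and *Camp* passed in only 2 or 3. *Epb42* and *Ermap* passed only without dox-treated replicate 3. Some of these lists were shaped by a published table of these same data, so their counts are not independent evidence of the direction.

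**Figure D4:**
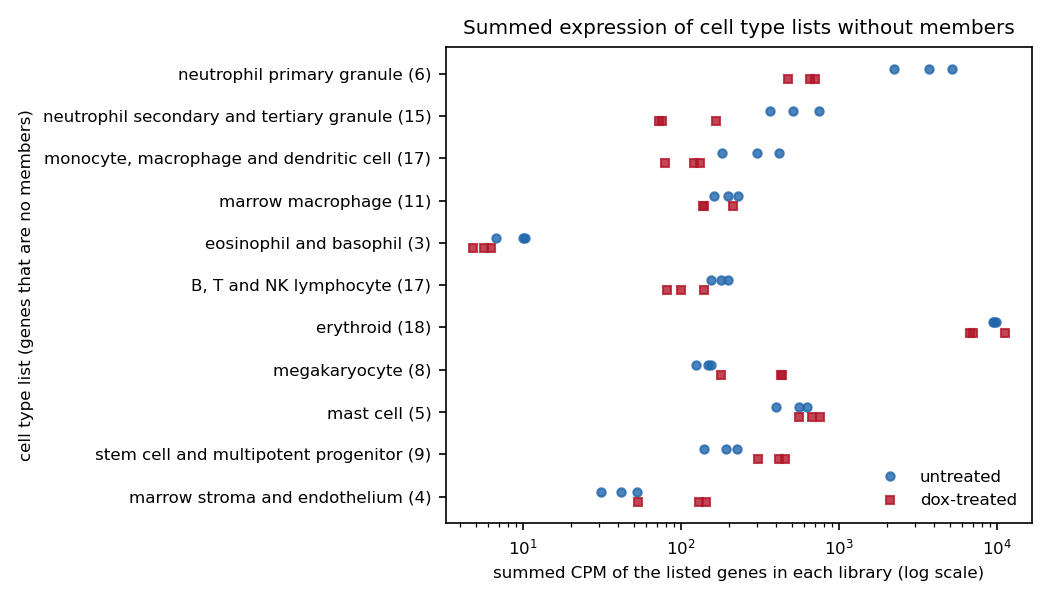
Summed CPM of the genes of each cell type list that are no members (y axis) in each library (x axis, log scale), with a circle for each untreated and a square for each dox-treated library. The neutrophil, monocyte, eosinophil and lymphocyte sums of the dox-treated libraries lie under all untreated ones, while the untreated erythroid sums, 9430 to 9848 CPM, lie within the dox-treated range of 6751 to 11278 CPM.

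Untreated replicate 1 carried more of the members' RNA than the other untreated libraries. It was the highest untreated library for 86 of the 136 members (63.2%), untreated replicate 2 for 27 (19.9%) and untreated replicate 3 for 23 (16.9%), against 32.9%, 37.2% and 29.9% over all genes. Among the 27 granule and myeloid members, 23 (85.2%) peaked in untreated replicate 1 and none in untreated replicate 2, and the median ratio of CPM between these libraries was 1.98. For the other 109 members, 63 (57.8%) peaked in untreated replicate 1 and the median ratio was 1.45. The same ordering was seen in myeloid genes outside the set. The primary granule genes summed to 5176, 2229 and 3682 CPM in untreated replicates 1, 2 and 3. The ratio between untreated replicates 1 and 2 was 2.32 for these genes. It was 1.42 for the marrow macrophage and 1.38 for the mast cell list, which hold no members either. Without their members, the stem cell genes summed to 224.06 and 139.04 CPM in untreated replicates 1 and 2. The like sums were 52.176 and 31.185 CPM for stroma and endothelium and 9.9142 and 6.7616 CPM for eosinophils and basophils. They were 197.78 and 155.15 CPM for lymphocytes, 148.6 and 123.93 CPM for megakaryocytes and 9847.6 and 9542.6 CPM for the erythroid list. In the dox-treated libraries the primary granule genes summed to 700.2, 656.7 and 476.0 CPM. The part of this myeloid RNA in the differences of other members was not tested.

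**Figure D5:**
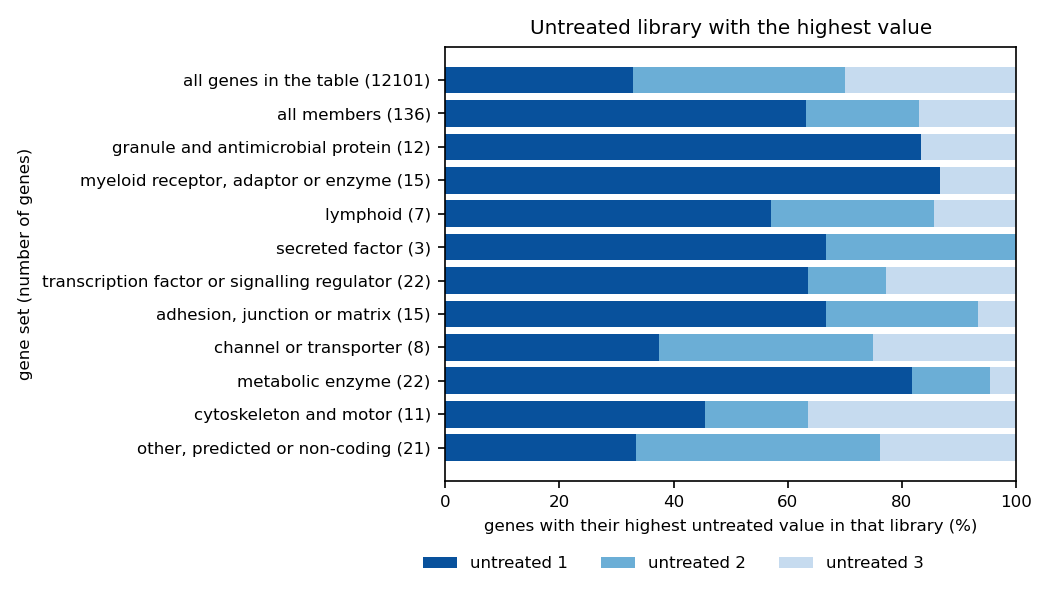
Share of all genes, of all members and of each function group (y axis) whose highest untreated value was in untreated replicate 1, 2 or 3, in percent (x axis, stacked bars). Untreated replicate 1 holds 63.2% of members against 32.9% of all genes.

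Lymphoid members were few and low. *Siglecg*, an inhibitory lectin of B cells, had 152, 82 and 85 reads against 25, 28 and 13, and *Cd69*, an early activation marker of lymphocytes, had 154, 62 and 95 against 17, 21 and 26. *Blnk*, the adaptor of B cell receptor signalling, had 85, 104 and 57 reads against 40, 18 and 24. *Ikzf3* (Aiolos), *H2-DMb2* (a chaperone of MHC class II loading), *Ccl5* and *Il21r* all had untreated means of 2.31 CPM or less. Defining B and T cell genes did not go with them: *Cd79a*, *Cd79b* and *Lck* differed by 0.16, 0.31 and 0.39, dox-treated minus untreated, and none passed the test. Of 17 lymphocyte genes that are no members 3 were lower.

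Apart from the loci at or near 0 reads, wide gaps were found in genes of other functions. *Chst10*, the sulfotransferase that makes the HNK-1 carbohydrate (NCBIM37, chr1:38920722-38955005, minus strand), had 240, 247 and 222 reads against 8, 5 and 10 (19.1 ± 1.03 against 0.570 ± 0.141 CPM), a difference of 5.10 that stayed at 4.88 or more when any library was left out. *Tinagl1*, a secreted matrix protein (chr4:129841698-129852366, minus strand), had 232, 279 and 194 reads against 12, 6 and 14 (18.8 ± 1.61 against 0.778 ± 0.255 CPM). Over both genes the lowest untreated library had 194 reads and the highest dox-treated library 14.

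Of 4 carbohydrate sulfotransferases that are no members, *Chst15* was higher, at 55.9 ± 9.58 CPM in dox-treated against 25.2 ± 2.60 CPM in untreated MEPs (limma adjusted p = 0.0209, passing only without dox-treated replicate 3 when a library was left out). *Chst13*, a chondroitin 4-sulfotransferase and a member, had 49, 33 and 36 reads against 5, 10 and 9. *Hpse*, heparanase, was a member with 76, 40 and 53 against 20, 17 and 28 reads. The glypicans *Gpc1* and *Gpc4*, which carry heparan sulfate and were not members, fell by 2.90 and 3.23 (limma adjusted p = 0.0267 and 0.0181), 2 of 6 glypicans and syndecans tested. Each of these passed in 2 of the 6 fits with a library left out.

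Membrane signalling genes formed further pairs. *Lrig1*, a transmembrane antagonist of ErbB receptors (NCBIM37, chr6:94554523-94650152, minus strand), had 297, 222 and 227 reads against 9, 9 and 45 (20.1 ± 3.39 against 1.44 ± 1.28 CPM), with dox-treated replicate 3 above the other two. *Nrg2*, a ligand of ErbB receptors, had 81, 31 and 53 reads against 4, 4 and 2. Of 4 other ErbB ligands, receptors and LRIG genes tested, 0 passed in limma, and the 1 at an unadjusted p under 0.05, *Erbb3*, had a higher mean with dox, by 0.70 (limma adjusted p = 0.136). *Spry4* and *Spry1*, inhibitors of receptor tyrosine kinase signalling to ERK, had 83, 43 and 94 against 7, 11 and 16 reads and 45, 35 and 25 against 7, 15 and 8 reads. Of 10 other genes of their list, *Dusp4* and *Etv5* were higher by 1.69 and 0.84 (limma adjusted p = 0.0218 and 0.042). At an unadjusted p under 0.05, 5 of the 10 had higher means with dox and 0 had lower ones. *Spred3* was 1 of these 5, higher by 2.27 (limma adjusted p = 0.0798). *Spry2* had a higher mean by 1.44 and did not pass (limma adjusted p = 0.197). With a library left out, *Dusp4* stayed past the test in 2 of 6 fits and *Etv5* in 1.

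*Khdrbs3*, an RNA-binding splicing regulator, had 286, 210 and 168 reads against 21, 16 and 14. *Dtx4*, a ubiquitin ligase of the Deltex family that acts in Notch signalling, had 282, 92 and 119 against 44, 44 and 36 reads, and *Hes1*, the classical Notch target, had 16, 40 and 17 against 13, 15 and 2. For *Hes1* the difference of 1.68 fell to 0.77 at the lowest when a library was left out. Of 8 other Notch genes tested, 0 passed in limma, and the 3 at an unadjusted p under 0.05 (*Dtx2*, *Jag2* and *Notch2*) had higher means with dox. *Tceal3*, a TFIIS-like elongation factor homologue, had 36, 23 and 46 reads against 0, 1 and 18. *Id2*, an inhibitor of basic helix-loop-helix factors, had 101, 60 and 70 reads against 22, 17 and 28.

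Ion channels included a pair of low-voltage (T-type) calcium channel genes. *Cacna1h* (NCBIM37, chr17:25511230-25570728, minus strand) had 60, 55 and 57 reads against 0, 1 and 4 and *Cacna1g* had 27, 53 and 42 against 5, 0 and 4. Of 3 other voltage-gated calcium channel alpha subunits tested, 0 passed in limma, and the 1 at an unadjusted p under 0.05, *Cacna1a*, had a higher mean with dox, by 1.28 (limma adjusted p = 0.0549). *Cacna1h* shares exon bases with *Tpsg1*, a mast cell tryptase gene on the opposite strand, and strand use in the counting is not stated. *Atp6v0a4*, a subunit of the proton pump of kidney intercalated cells, had 14, 23 and 14 reads against 0 in every dox-treated library, at least 6.38-fold lower when the dox-treated level is set at 3 reads per library. *Kcnk12*, a two-pore-domain potassium channel, had 116, 56 and 67 against 22, 4 and 9 reads, and *Scnn1a*, the alpha subunit of the epithelial sodium channel, 58, 30 and 39 against 13, 12 and 5.

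Genes of adhesion, junctions and matrix included receptors, cadherins and a claudin. *Ptpru*, a receptor tyrosine phosphatase with adhesion domains, had 67, 38 and 52 reads against 1, 7 and 0. *Dsc2*, a desmosomal cadherin, had 135, 117 and 60 against 4, 7 and 12, and *Cldn15*, a claudin of tight junctions, had 202, 71 and 72 against 12, 23 and 19. Of 9 other junction genes tested, 1 was lower and 2 were higher. *Gja1* (connexin 43) fell by 3.54 (limma adjusted p = 0.0115), while the desmosomal genes *Dsp* and *Pkp2* were higher by 5.12 and 1.95 (limma adjusted p = 0.0257 and 0.00828). Of these, *Pkp2* passed in all 6 fits with a library left out, *Gja1* in 5 and *Dsp* in 1. *Ncam1* (CD56) had 147, 50 and 85 reads against 10, 17 and 6, and *Prom1* (CD133) had 260, 110 and 124 against 28, 30 and 28.

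Metabolic members included several enzymes of lipid synthesis. *Sgms2*, which makes sphingomyelin, had 363, 119 and 167 reads against 23, 29 and 27 (17.4 ± 9.90 against 1.90 ± 0.260 CPM). *Mogat2* and *Dgat2*, which make diacylglycerol and triacylglycerol and lie 36371 bases apart on NCBIM37 chromosome 7, had 47, 21 and 38 against 3, 11 and 6 reads and 86, 24 and 35 against 13, 23 and 14 reads. *Cds1* and *Mboat1* stood at 2.41 ± 1.09 and 2.07 ± 0.951 CPM in untreated MEPs. Of 16 other genes of glycerolipid and sphingomyelin synthesis tested, 4 were lower and 1 was higher. *Scd1* and *Scd2*, fatty acid desaturases, each fell by 2.57 (limma adjusted p = 0.0127 and 0.015), with a call in 3 and 4 of 6 fits that left a library out, and *Lpcat1* by 1.54 (limma adjusted p = 0.0107), with a call in all 6.

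*Cyp1a1* had 62, 45 and 36 reads against 1, 3 and 4 (3.85 ± 0.877 against 0.220 ± 0.0959 CPM). Of 4 other genes of the aryl hydrocarbon receptor list 0 passed in limma, and the 1 at an unadjusted p under 0.05, *Tiparp*, another target of that receptor, had a higher mean with dox, by 1.10 (limma adjusted p = 0.0558). *Glt1d1*, a predicted glycosyltransferase, had 30, 27 and 20 reads against 8, 2 and 1. *Nags*, which makes the activator of the urea cycle, had 60, 105 and 57 reads against 10, 6 and 14. *Hsd11b1*, which regenerates active glucocorticoid, had 167, 66 and 69 against 20, 18 and 13. The hypoxia list had 1 lower gene of 15, *Ak4*, which passed in 2 of the 6 fits with a library left out. Over all families 8 of 79 genes that are no members were lower and 6 higher, and the lower ones numbered 4, 3, 5, 4 and 1 without dox-treated replicate 1, dox-treated replicate 2, untreated replicate 1, untreated replicate 2 and untreated replicate 3 and 12 without dox-treated replicate 3. The higher ones numbered 1, 1 and 21 without dox-treated replicates 1, 2 and 3 and 1, 2 and 2 without untreated replicates 1, 2 and 3.

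Among cytoskeletal members, *Myo18b*, an unconventional myosin of muscle, had 35, 19 and 37 reads against 1, 2 and 0, and *Mtus1*, a microtubule-associated tumour suppressor, had 366, 140 and 208 against 46, 42 and 29. *Rflnb*, a filamin-binding protein, had 188, 96 and 118 reads against 18, 35 and 15. *Cttnbp2*, a cortactin-binding protein, had 48, 150 and 31 against 5, 6 and 35. *Septin5* shares exon bases with *Gp1bb*, a platelet receptor gene, on the same strand, so its reads are uncertain.

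The secreted factors included *Erfe*, erythroferrone, through which erythroblasts lower hepcidin. It had 55, 264 and 82 reads against 26, 41 and 26, a difference of 1.98 that became 1.39 without untreated replicate 2. *Nucb2*, the precursor of nesfatin, had 155, 82 and 83 against 19, 24 and 15 reads, and *F10*, coagulation factor X, 87, 55 and 48 against 19, 13 and 15.

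Untreated replicate 2 also decided the member with the highest level. *Epdr1*, an ependymin-related lysosomal protein, had 125, 1127 and 145 reads against 41, 25 and 57 (35.4 ± 41.5 against 2.88 ± 0.908 CPM), and its difference went from 2.99 to 2.03 without that library. Per kilobase of exon, *Epdr1* (14.9 CPM per kilobase), *Wfdc21* (12.9), *Prg2* (11.5), *Trem3* (10.8), *Slpi* (10.6) and *Cebpd* (9.85) were the most abundant members in untreated MEPs.

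Several of the largest differences came from predicted loci counted in a single dox-treated library. *Gm10254* had 64, 81 and 95 reads against 0, 0 and 31, *Gm17447* had 85, 38 and 33 against 0, 21 and 0 and *Gm5874* had 36, 58 and 22 against 10, 0 and 0, so that dox-treated replicates 3, 2 and 1 respectively held all of the dox-treated reads. *Gm17447* shares exon bases with *Arsb* on the opposite strand, and *Gm11505* shares 512 exon bases with *Mpo*, also on the opposite strand. *Ifi205*, an interferon-inducible gene with near copies in its family, had 24, 19 and 14 reads against 0 in each dox-treated library, at least 7.14-fold lower at 3 reads per library. In all, 5 members shared exon bases with a gene on the same strand and 19 with a gene on the opposite strand.

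On NCBIM37, 13 members lay within 100 kb of another member, and the like share for other genes was not counted. *Clec5a* and *Mgam*, maltase-glucoamylase, were 43026 bases apart, *Trem3* and *B430306N03Rik* 57259, *Ttc21a* and *Cx3cr1* 80900, and *Ccl5* and *1700020L24Rik* 84546. Chromosomes 6 and 11 held 15 members each of the 136, against 4.88% and 8.33% of all genes, and chromosome X held 1.

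The limits cut through a continuous range. Just inside, *AI854703* and *Mboat1* had differences of 1.52 and 1.53, and just outside, *Slc5a2*, *Ankrd63* and *Map3k15* had 1.49, 1.49 and 1.48. By their highest dox-treated value, *Susd2* (1.91) and *Epdr1* (1.88) were inside and *Pglyrp1* (2.07), a peptidoglycan recognition protein of neutrophil granules, was outside. A further 71 genes met the other limits but reached 2 or more in a dox-treated library, and 18 were under 2 with groups that overlapped, among them *Itgax* (CD11c), which had 20, 18 and 10 reads against 13, 1 and 0.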

How the data were processed

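RNA-seq was made from sorted MEPs of dox-treated and untreated mice, 3 libraries each. The authors trimmed reads with Cutadapt, mapped and counted them with RSEM (Ensembl transcripts, NCBIM37) and normalized with limma, and the deposited values are log2 CPM with 0.5 reads added. Strand use in counting is not given in the sources used here. Each library's lowest value gave back whole reads (largest deviation 6.6e-09 reads), which were used for depth and for a floor of 3 reads.

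limma 3.58.1 (R 4.3.3, lmFit and eBayes, no block) was fitted to the 12088 genes that reached 1 CPM in 3 or more libraries. The p-values were adjusted after Benjamini–Hochberg (threshold 0.05). The code was run on simulated counts with the same dispersion for every gene and no deviating library, which cannot show how stable the calls are in these data. All 136 members passed that filter, through their untreated values. The members and lists were chosen with earlier results of these data known, and function groups were completed after values were seen, so members are described without a test, and list counts in the report leave them out. The genes named are up to 5 members of each function group with the largest difference, the 6 members with most CPM, members with at most 3 reads in every dox-treated library, the genes nearest the limits, list members, some of the 4 other genes of each list with the smallest p, and *Nanog*. Further genes were chosen after their values were seen. A gene the rule names is not reported here. Gene names and positions are from the NCBIM37 GENCODE annotation (12067 genes matched), and promoters are from RefSeq. Alternatives changed the reads added, the filter, the scaling, the variance trend, the block and the limits, and left out each library. Python 3.11.15 with matplotlib 3.10.9, numpy 2.4.6 and pandas 2.3.3 made the figures and tables.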

Additional observations from a re-analysis of the deposited data

How the results depend on the processing

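Without the block, 384 genes were lower and 555 higher in dox-treated MEPs, with 52 lower genes in cell type lists and 24 in family lists. With the replicate block these counts were 29, 53, 4 and 2. The labels number the replicates of both groups 1 to 3, but same-numbered libraries did not deviate together (r = 0.0184, -0.121 and -0.299), so the numbers were not taken as pairs. With members left out of the lists, a choice made after seeing the data, 28 and 8 list genes were lower. With a variance trend in eBayes, 747 genes were lower and 909 higher. Leaving out each library by turns, the counts ranged from 36 to 1687 lower genes, 92 to 1801 higher genes, 4 to 64 lower genes in cell type lists and 4 to 27 in family lists, the highest without dox-treated replicate 3 in each case, and all 6 libraries moved the counts over all genes by more than 1.5 times. The cause was not tested. The same limits were met by 126 genes with 2 reads added before the log (all shared with the 136), by 182 after quantile normalisation (132 shared), by 104 with an upper limit of 1, by 97 with a least difference of 2 and by 139 to 158 with a library left out (121 to 132 shared). Of 1088 member differences under an alternative, 19 moved by more than the replicate spread. The lowest was 0.73 for *Il21r* with a library left out. Groups of 3 libraries and few reads per gene limit the precision of each level.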
